A study of Homo sapiens with 9 samples.

Results

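WNT/β-catenin signalling was described in HCT116 cells through 10 genes: CTNNB1, APC, AXIN2, LGR5, ASCL2, NKD1, RNF43, ZNRF3, TCF7 and TCF7L2. They were chosen by name, as rows of the deposited table whose Ensembl identifier matches these symbols, and all 10 had a row among the 15354 rows of the table. HCT116 is an established human colorectal cancer line. The 9 libraries comprised 3 transfected with a non-targeting control siRNA, 3 with siRNA A and 3 with siRNA B, both directed at the long non-coding RNA SNHG5. All were reverse transfected at 25 nM per the labels, whereas the study's general methods state a higher concentration, and RNA was taken 36 h later. The study's methods call the replicates biological, and 1 cell line was used throughout. The labels do not tell which of the study's siRNA names is A and which is B.

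In WNT signalling, secreted ligands bind Frizzled and LRP co-receptors and thereby stop a destruction complex built on APC and AXIN proteins from marking β-catenin, the product of CTNNB1, for degradation. Stabilised β-catenin enters the nucleus and activates target genes together with TCF factors such as those encoded by TCF7 and TCF7L2. Several targets feed back on the pathway: AXIN2 is a scaffold of the destruction complex, NKD1 antagonises Dishevelled, and the ubiquitin ligases RNF43 and ZNRF3 remove Frizzled from the cell surface. LGR5 and ASCL2 are targets that mark intestinal stem cells. In the colon the pathway maintains crypt stem cells and is activated by mutation in most carcinomas. HCT116 carries a stabilising mutation in CTNNB1 and an intact APC gene.

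RefSeq promoter windows, from 250 bases before to 50 bases after a gene start on GRCh38.p14, were matched by symbol and found for 5 of the 10 genes (CTNNB1, APC, RNF43, TCF7 and TCF7L2). They are shown because TCF factors act at target genes through a short word. The 4 words that begin with CTTTG and end in AA, AT, TA or TT were searched on both strands, and 13.8% of the 35116 promoter windows in the table held at least 1 of them. Of the 10 windows of these genes, 2 held a match, 1 of TCF7 and 1 of TCF7L2. Both belong to downstream gene starts. The most upstream windows of TCF7 and TCF7L2, which begin at chr5:134115363 and chr10:112949997, held none. Of the 74 other pathway genes listed below that had a window, 9 had a match in at least 1 window, SP5 with the most, 3. DKK1, a WNT antagonist whose window held 2, is shown because it rose most of these genes, a choice made after its values were seen. The windows of LRP5 and NKD2, which fell, held none, nor did those of CSNK1A1 and EP300, which rose. Matches also lay in windows of CTNNA1, called higher under both siRNAs, and of CSNK1E, called higher under siRNA A. WNT3, with a match, was called with neither siRNA. CTBP2, with a match in a window, was called in opposite directions under the siRNAs. Whether matches go with a direction of change was not tested. The stretches below run 5′ to 3′ on the plus strand, at chr5:134123508-134123634 for TCF7, chr10:113126440-113126566 for TCF7L2 and chr10:52314126-52314271 for DKK1. Capitals mark the matched word, which in TCF7 is read on the opposite strand. A match is a description of these letters and not a binding site.
TCF7: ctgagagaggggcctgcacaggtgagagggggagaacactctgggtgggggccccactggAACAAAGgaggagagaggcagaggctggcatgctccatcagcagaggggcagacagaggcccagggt
TCF7L2: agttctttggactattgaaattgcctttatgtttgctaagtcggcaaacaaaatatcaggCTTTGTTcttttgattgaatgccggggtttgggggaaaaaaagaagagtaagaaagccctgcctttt
DKK1: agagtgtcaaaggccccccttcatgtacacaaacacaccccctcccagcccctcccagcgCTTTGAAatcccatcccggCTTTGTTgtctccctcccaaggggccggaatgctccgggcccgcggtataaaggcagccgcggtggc

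The table held CPM, the reads of a gene scaled to a common library total, and each library rested on 15566530 to 23277549 reads, with replicate 2 of siRNA A and replicate 2 of siRNA B the shallowest. SNHG5 itself, the targeted RNA, stood at 31.3, 22.1 and 26.0 TMM-scaled CPM in the control libraries, at 71.5, 58.8 and 67.3 under siRNA A and at 46.2, 50.3 and 46.1 under siRNA B. All 6 libraries labelled as knockdown thus lay above the control libraries for this RNA (log2 fold change 1.29 ± 0.13 SE for siRNA A and 0.83 ± 0.13 for siRNA B, limma adjusted p = 1.86e-05 and 0.00059), which goes against the labels. Exons of SNHG5 overlap 2 other genes on its strand (ENSG00000271793 and PKMP3), so its reads may be shared, and the study's own qRT-PCR of this RNA was not analysed here. Directions below are therefore those of the libraries labelled siRNA A and siRNA B. Epithelial markers were present in all libraries, led by KRT8 at 884 CPM or more and with EPCAM at 94.6 to 214 CPM, but their levels moved. Of 6 such markers 5 were called under siRNA A: KRT8, KRT18 and KRT19 rose (log2 fold change 1.06, 1.01 and 1.09, limma adjusted p = 4.27e-05, 1.77e-05 and 9.68e-05), and EPCAM and CDX2 fell (-0.55 and -0.52, limma adjusted p = 0.00121 and 0.00413). Under siRNA B 3 were called: KRT8 and VIL1 rose (0.59 and 0.50, limma adjusted p = 0.00329 and 0.00305) and CDX2 fell (-0.43, limma adjusted p = 0.0182). Of all genes tested, 51.4% were called under siRNA A and 34.0% under siRNA B. CDH1, also an epithelial marker, was counted with the junction genes below and was called with neither siRNA. The summed level of the 6 was 2047 to 2146 CPM in control, 2767 to 3402 under siRNA A and 2362 to 2420 under siRNA B. Of the markers of other cell types, CD14, COL3A1 and PDGFRB had 12 reads or fewer per library. Of 8 such markers 4 had a row, and their summed level was 18.7 to 19.7 CPM in control, 9.57 to 12.6 under siRNA A and 8.85 to 10.0 under siRNA B. COL1A1, the 1 that passed the filter, was present at 8.55 to 19.5 CPM and was lower under both siRNAs (log2 fold change -0.46 for A and -0.79 for B, limma adjusted p = 0.00878 and 0.000646), and the part of these marker changes in the results was not tested. All libraries came from HCT116 cells, and in bulk RNA fewer cells that express a gene and less of its RNA per cell cannot be told apart.

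Levels below are CPM divided by the library's TMM factor, a scale factor from edgeR's trimmed mean of M values. The factors averaged 1.14 in control, 0.886 under siRNA A and 0.988 under siRNA B. Changes are log2 fold changes from limma on log2(TMM-scaled CPM + 1), a scale on which low genes appear to change less than they do, with Benjamini-Hochberg adjusted p-values across the 13893 genes tested. A change counted as called at an adjusted p under 0.05. On this scale the median gene changed by -0.02 under siRNA A and by 0.0043 under siRNA B. These medians were -0.34 and -0.18 when libraries were scaled by their totals alone. Both comparisons used the same 3 control libraries. Libraries are numbered by their replicate.

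Per kilobase of its canonical transcript, CTNNB1 had the highest level in control cells, at 72.2 TMM-scaled CPM per kb, followed by TCF7L2 at 40.0, RNF43 at 18.7, TCF7 at 11.2 and APC at 6.06. AXIN2 followed at 3.29 and ZNRF3 at 2.87, and the libraries of these 2 genes overlapped, whereas the other neighbours down to NKD1 were separate. NKD1 stood at 0.344 per kb. This order depends on the length used. All annotated exons of CTNNB1 span 11.8 kb, against 3.66 kb for its canonical transcript, and those of TCF7L2 6.74 kb against 4.08 kb. Levels per kb of all exons were not computed. The stem cell genes were at the end of the order. LGR5 had 1 read in 7 of the libraries and none in the remaining ones, and ASCL2 had none in any. The limit set for a count of 0 was 3 reads, which correspond to 0.129 to 0.193 CPM. Both genes were under that limit in all 3 groups. No fold change was computed for either, since neither reached 1 CPM in at least 3 libraries. The order shifted under siRNA B. There CTNNB1, at 43.7 per kb, overlapped with TCF7L2 at 44.2, and AXIN2, at 1.02, lay below all ZNRF3 libraries, whose mean was 2.53. With siRNA A, APC rose to 9.06 per kb and overlapped with TCF7 at 10.5.

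Of the 10 genes, 8 passed the filter of at least 1 CPM in at least 3 libraries and were tested, all but LGR5 and ASCL2. With siRNA B, 5 of the 8 were called, and all 5 fell: CTNNB1, AXIN2, NKD1, RNF43 and TCF7. Of all genes tested in that comparison 34.0% were called, 18.3% as lower and 15.6% as higher. With siRNA A, 4 of the 8 were called, against 51.4% of all genes, so the share was near the background. CTNNB1, APC and TCF7L2 rose (23.9% of all genes did) and NKD1 fell (27.6% did). Scaled by library totals alone, the siRNA A calls were 3, all lower (NKD1, ZNRF3 and TCF7), so that split depends on the scaling, whereas there were again 5 siRNA B calls, all lower. Over the 8 genes the median log2 fold change reached -0.03 under siRNA A and -0.50 under siRNA B. NKD1 fell under both siRNAs, CTNNB1 moved in opposite directions, and ZNRF3 was called with neither.

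**Figure D1:**
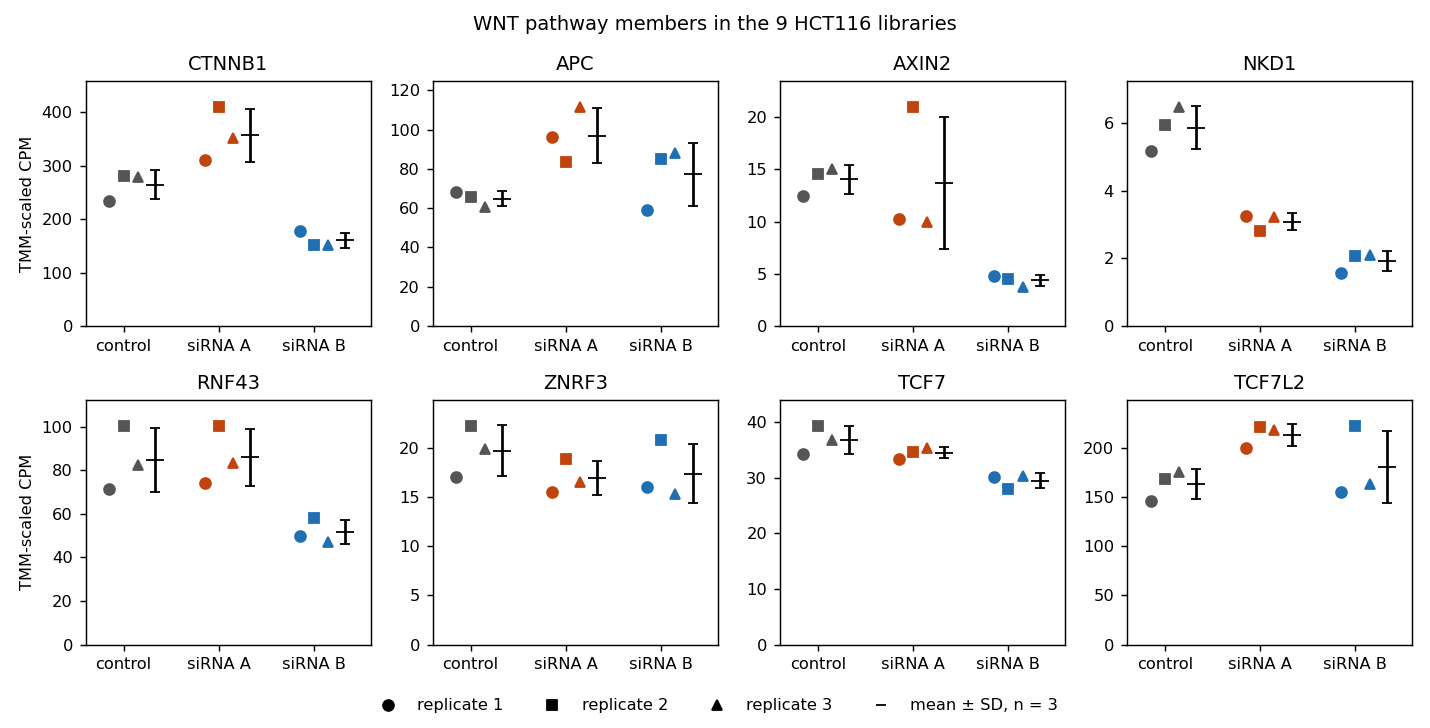
TMM-scaled CPM (y axis, from 0) of the 8 tested genes in each library of the control, siRNA A and siRNA B groups (x axis); symbols mark replicates 1 to 3, and black bars the mean ± SD of 3 libraries. For CTNNB1, AXIN2, NKD1, RNF43 and TCF7 all 3 siRNA B libraries lie below all 3 control libraries, and replicate 2 of siRNA A stands apart for AXIN2 at 20.9.

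CTNNB1 (ENSG00000168036, chr3:41236232-41301587 on GRCh37, plus strand) encodes β-catenin and was the only gene of the set called in both comparisons in opposite directions. Its level was 233, 282 and 278 TMM-scaled CPM in control libraries 1 to 3, 311, 409 and 351 under siRNA A, and 177, 151 and 152 under siRNA B. The 3 groups did not overlap, siRNA A being highest and siRNA B lowest. Against control the log2 fold change was -0.72 ± 0.13 for siRNA B (60.6% of control, limma adjusted p = 0.0012) and 0.43 ± 0.13 for siRNA A (135% of control, limma adjusted p = 0.0136). The fall under siRNA B was called under all alternatives run. The rise under siRNA A was not called with library totals alone (0.06, limma adjusted p = 0.721), nor without control library 1 (0.34, 0.0542) or siRNA A library 2 (0.33, 0.0542).

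APC (ENSG00000134982, chr5:112043215-112181936, plus strand), the destruction complex scaffold lost in many colorectal cancers, stood at 68.1, 65.8 and 60.6 in control, 96.0, 83.4 and 111 under siRNA A, and 59.0, 84.9 and 88.1 TMM-scaled CPM under siRNA B. All siRNA A libraries lay above control, and siRNA B overlapped with control through its replicate 1. The log2 fold change was 0.56 ± 0.15 for siRNA A (150% of control, limma adjusted p = 0.00927) and 0.23 ± 0.15 for siRNA B (95% interval -0.11 to 0.57, adjusted p = 0.272). Scaling by library totals left the siRNA A value at 0.20 and not called (adjusted p = 0.289). Without siRNA B library 1, the siRNA B value was 0.41 and called (adjusted p = 0.0491).

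AXIN2 (ENSG00000168646, chr17:63524681-63557766, minus strand), the scaffold that is itself a WNT target, had the lowest log2 fold change of the set under siRNA B. NKD1 was close to it as a share of control, at 32.6%. Levels were 12.4, 14.6 and 15.1 TMM-scaled CPM in control and 4.79, 4.52 and 3.77 under siRNA B, a drop to 31.1% of control that all 3 libraries shared (log2 fold change -1.49 ± 0.23, limma adjusted p = 0.000542). The siRNA A libraries were spread, at 10.2, 20.9 and 9.91, with replicates 1 and 3 below all control libraries and replicate 2 above them. The siRNA A value was -0.11 ± 0.23 (95% interval -0.61 to 0.39, adjusted p = 0.711). Without siRNA A library 2 it was -0.44 and called (adjusted p = 0.0279), and without replicate 1 or 3 it turned positive, to between 0.05 and 0.07 (adjusted p from 0.845 to 0.892).

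NKD1 (ENSG00000140807, chr16:50582307-50683160, plus strand), the Dishevelled antagonist and feedback target, fell under both siRNAs. It was at 5.18, 5.95 and 6.47 TMM-scaled CPM in control, 3.24, 2.80 and 3.21 under siRNA A, and 1.57, 2.07 and 2.10 under siRNA B. The groups were separate and ordered control, siRNA A, siRNA B. This was the least abundant gene tested of the set, resting on 130 to 148 reads per control library and 32 to 61 reads per siRNA library. The log2 fold change was -0.75 ± 0.14 for siRNA A (52.6% of control, limma adjusted p = 0.000883) and -1.24 ± 0.14 for siRNA B (32.6% of control, limma adjusted p = 6.75e-05). Both calls held under all alternatives run.

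The ubiquitin ligases RNF43 and ZNRF3, which both clear Frizzled receptors, differed in their calls. RNF43 (ENSG00000108375, chr17:56431037-56494956, minus strand) was at 71.3, 100.5 and 82.4 TMM-scaled CPM in control, 74.2, 100.3 and 83.3 under siRNA A, and 50.0, 57.9 and 47.0 under siRNA B. All siRNA B libraries lay below control, and the siRNA A range was within the control range. The log2 fold change for siRNA B was -0.70 ± 0.15 (60.9% of control, limma adjusted p = 0.00374). For siRNA A it was 0.02 ± 0.15 (95% interval -0.30 to 0.34, adjusted p = 0.908), and its sign turned with library totals alone (-0.34, adjusted p = 0.0659). ZNRF3 (ENSG00000183579, chr22:29279560-29453476, plus strand) was at 17.0, 22.2 and 19.8 in control, 15.5, 18.8 and 16.5 under siRNA A, and 16.0, 20.8 and 15.3 under siRNA B, and its groups overlapped. The ZNRF3 log2 fold changes were -0.20 ± 0.14 (95% interval -0.52 to 0.11, adjusted p = 0.257) for siRNA A and -0.18 ± 0.14 (-0.49 to 0.14, adjusted p = 0.376) for siRNA B. ZNRF3 was called lower under siRNA A with library totals alone (-0.55, adjusted p = 0.00573). In every group the highest RNF43 and ZNRF3 values were those of replicate 2.

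Of the TCF factors, TCF7 fell under siRNA B and TCF7L2 rose under siRNA A. TCF7 (ENSG00000081059, chr5:133450372-133487556, plus strand), itself a WNT target, was at 34.3, 39.4 and 36.8 TMM-scaled CPM in control, 33.5, 34.6 and 35.5 under siRNA A, and 30.1, 28.0 and 30.4 under siRNA B. It fell under siRNA B to 80.1% of control (log2 fold change -0.31 ± 0.10, limma adjusted p = 0.0281), with separate groups. That call was lost without control library 2 or 3 or any siRNA B replicate (values from -0.33 to -0.27, adjusted p from 0.054 to 0.0811). With siRNA A the TCF7 value was -0.09 ± 0.10 (95% interval -0.30 to 0.12, adjusted p = 0.464). Scaling by library totals made this a called fall (-0.45, adjusted p = 0.00591). TCF7L2 (ENSG00000148737, chr10:114710006-114927437, plus strand), the main TCF factor of intestinal epithelium, was at 146, 168 and 175 in control, 199.8, 221 and 217 under siRNA A, and 155, 222 and 163 under siRNA B. Its siRNA A libraries lay above control, and only replicate 2 of siRNA B did so as well. TCF7L2 rose under siRNA A (0.38 ± 0.14, 130% of control, limma adjusted p = 0.0326) and stood at 0.13 ± 0.14 on the log2 scale under siRNA B (95% interval -0.17 to 0.42, adjusted p = 0.50). The TCF7L2 call under siRNA A did not hold by library totals alone (0.016, adjusted p = 0.927), nor without any 1 control library, and without siRNA A library 2 or 3 (0.30 to 0.43, adjusted p from 0.0514 to 0.118).

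**Figure D2:**
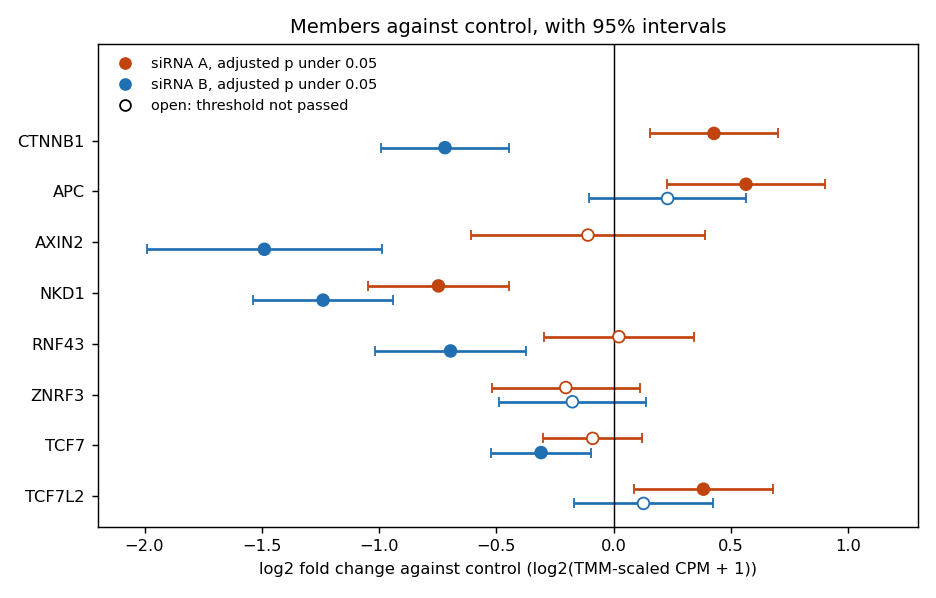
Log2 fold change against control (x axis) of the 8 tested genes for siRNA A and siRNA B, with 95% intervals from limma; filled points passed an adjusted p of 0.05. CTNNB1 lies on opposite sides of 0 for the 2 siRNAs (0.43 and -0.72), and AXIN2 under siRNA B has the lowest value, -1.49.

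Libraries with separate values were counted as well. The siRNA A libraries of 4 of the 8 genes did not overlap with control (3 above, 1 below), where 59.5% of all genes tested were separate. For siRNA B the count was 5 of 8, all below, where 47.6% of all genes were separate. Both shares count either direction, and shares by direction were not computed over all genes.

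**Figure D3:**
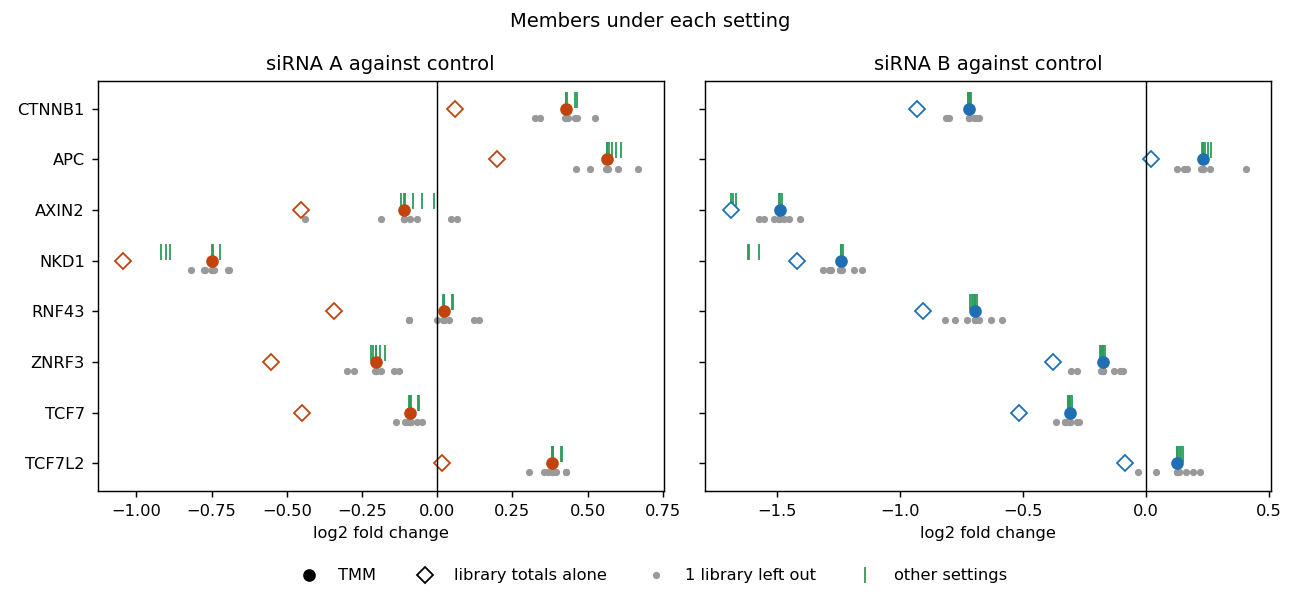
Log2 fold change against control (x axis) of each tested gene with TMM scaling (filled circles), with library totals alone (open diamonds), with 1 library left out at a time (grey dots) and under the other settings (green ticks). With library totals alone the siRNA A values of CTNNB1 and TCF7L2 fall to 0.06 and 0.016, whereas the siRNA B values of CTNNB1, AXIN2, NKD1, RNF43 and TCF7 stay below 0 throughout.

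The difference between the 2 siRNAs was tested directly. Of the 8 genes, 4 were called, all higher under siRNA A than under siRNA B: CTNNB1, AXIN2, RNF43 and NKD1. Of all genes tested 37.1% were called, 17.6% as higher and 19.5% as lower. For CTNNB1 the log2 difference was 1.15 ± 0.13 (limma adjusted p = 6.78e-05), and for AXIN2 1.38 ± 0.23 (limma adjusted p = 0.00083). RNF43 differed by 0.72 ± 0.15 (limma adjusted p = 0.00296) and NKD1 by 0.49 ± 0.14 (limma adjusted p = 0.0154). Scaling by library totals ended the NKD1 call (0.38, adjusted p = 0.0556), as did the omission of siRNA B library 1 (0.41, adjusted p = 0.0644). The remaining 4 did not pass, with 95% intervals of the log2 difference from -0.0012 to 0.67 for APC, -0.34 to 0.29 for ZNRF3, 0.0085 to 0.43 for TCF7 and -0.04 to 0.55 for TCF7L2. Without siRNA B library 2, TCF7L2 was also called (0.41, adjusted p = 0.0128). Libraries of the 2 siRNAs did not overlap for 5 genes, TCF7 being the fifth, where 47.6% of all genes were separate. The median log2 difference of the 8 genes was 0.41, against -0.014 over all genes.

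A list of 101 other WNT pathway genes was examined by role. Of these, 77 had a row and 65 passed the filter. With siRNA A, 37 of the 65 were called, 16 higher and 21 lower, and under siRNA B 31 were called, 14 higher and 17 lower, where 51.4% and 34.0% of all genes were called. Their median log2 fold changes were 0.02 and -0.08. By library totals alone the splits were 5 higher and 31 lower for siRNA A and 5 higher and 26 lower for siRNA B. With TMM scaling 23.9% of all genes were called higher and 27.6% lower under siRNA A, and 15.6% and 18.3% under siRNA B. Whether any role below differs from these shares was not tested. Of the 65, 9 were called higher and 12 lower under both siRNAs, and 1, CTBP2, was called in opposite directions. The share of all genes called under both siRNAs was not computed, so these counts have no background. Both comparisons also share the control libraries. Between the siRNAs 22 of the 65 differed, where 37.1% of all genes were called. Of the 22, 13 were higher and 9 lower under siRNA A (6 and 16 with library totals alone). The count of 22 became 14 without siRNA A library 3 or siRNA B library 1, and 13 without siRNA B library 3.

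At the ligand end, 2 of 7 tested ligands were called under siRNA A and 1 under siRNA B, all lower. Of all genes, 51.4% and 34.0% were called. WNT9A was at 53.5% of control under siRNA A and 74.4% under siRNA B (log2 fold change -0.78 and -0.37, limma adjusted p = 0.000418 and 0.0412), and WNT7B at 65.2% under siRNA A (-0.55, limma adjusted p = 0.0233). Both genes needed for ligand secretion fell under both siRNAs. PORCN, which acylates WNT proteins, changed by -0.46 and -0.77 (limma adjusted p = 0.0323 and 0.00349), and WLS, which carries them to the surface, by -0.41 and -0.73 (limma adjusted p = 0.00521 and 0.000257). When 1 library was left out, the WNT9A call under siRNA B was lost in 7 of 9 cases (adjusted p up to 0.102; it held without siRNA A library 2 or 3). The WNT7B call under siRNA A was lost without control library 2 or siRNA A library 1 or 3 (up to 0.0986), and the PORCN call under siRNA A without these or control library 3 (up to 0.0934).

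Among receptors, 5 of 9 were called under siRNA A (2 higher, 3 lower) and 4 under siRNA B (1 higher, 3 lower). The shares over all genes were 51.4% and 34.0%. LRP5, a co-receptor of Frizzled, had the largest fall of the pathway genes in both. It was at 35.7, 55.5 and 43.3 TMM-scaled CPM in control, 7.92, 17.1 and 8.41 under siRNA A, and 9.08, 17.6 and 9.73 under siRNA B. All 6 siRNA libraries lay below control, and replicate 2 was highest in each group. The log2 fold changes were -1.97 ± 0.29 and -1.84 ± 0.29 (limma adjusted p = 0.000202 and 0.000626). FZD3 fell to 63.9% and 67.4% of control (limma adjusted p = 0.000653 and 0.00266) and FZD4 to 61.7% and 69.5% (limma adjusted p = 0.00594 and 0.0319). FZD2 rose under siRNA A (215% of control, limma adjusted p = 0.00182) and stood at 87.1% under siRNA B (limma adjusted p = 0.519), and the 2 siRNAs differed (1.11 ± 0.19, limma adjusted p = 0.00112). LGR4, the R-spondin receptor related to LGR5, was low at 1.76 to 8.39 CPM and fell to 61.8% and 42.7% of control (limma adjusted p = 0.0387 and 0.00408). The FZD4 call under siRNA B was lost without control library 2 or 3 or siRNA B library 1 or 3 (adjusted p up to 0.115). The LGR4 call under siRNA A was lost without those control libraries, siRNA A library 1 or 3 or siRNA B library 1 (up to 0.144).

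Of 5 antagonists tested, 4 were called under siRNA A (1 higher, 3 lower) and 5 under siRNA B (2 higher, 3 lower). Over all genes 51.4% and 34.0% were called. DKK1, a secreted inhibitor that binds LRP co-receptors and a WNT target, rose most of the pathway genes. Its level was 157, 149 and 159 TMM-scaled CPM in control, 495, 849 and 493 under siRNA A, and 456, 447 and 344 under siRNA B. The siRNA libraries were all above control. The log2 fold change was 1.93 ± 0.19 for siRNA A (396% of control, limma adjusted p = 1.64e-05) and 1.41 ± 0.19 for siRNA B (269%, limma adjusted p = 0.000244). KREMEN1, the DKK co-receptor, fell to 43.6% and 53.3% of control (limma adjusted p = 1.72e-05 and 0.000192). NOTUM, which removes the lipid from WNT ligands, fell to 55.9% and 59.5% (limma adjusted p = 0.00481 and 0.0147), and NKD2, the paralogue of NKD1, to 58.0% and 61.5% (limma adjusted p = 0.00177 and 0.0057). The NOTUM call under siRNA B was lost without control library 2 or siRNA B library 1 (adjusted p up to 0.0624).

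Of the 3 Dishevelled genes, DVL3 fell under siRNA A to 50.9% of control (log2 fold change -0.95 ± 0.10, limma adjusted p = 3.01e-05) and had a value of -0.11 ± 0.10 under siRNA B (limma adjusted p = 0.463), and the siRNAs differed (-0.85, limma adjusted p = 0.000131). By library totals alone DVL3 was also called lower under siRNA B (-0.32, limma adjusted p = 0.0364). DVL2 was called higher under siRNA B (0.28, limma adjusted p = 0.04), a call lost with library totals alone (0.07, limma adjusted p = 0.655) and in 7 of the 9 fits with 1 library left out (up to 0.151; it held without control library 2 or siRNA A library 2).

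In the destruction complex, 6 of 12 genes were called under siRNA A (5 higher, 1 lower) and 5 under siRNA B (4 higher, 1 lower). The background of all genes was 51.4% and 34.0% called. CSNK1A1, the kinase that primes β-catenin for degradation, rose to 162% and 148% of control (limma adjusted p = 0.000222 and 0.00155). GSK3A, which phosphorylates β-catenin with its paralogue GSK3B, rose to 141% and 142% (limma adjusted p = 0.00394 and 0.00639), though with library totals alone neither value was called (0.13 and 0.29, adjusted p = 0.329 and 0.0571). TNKS2, a tankyrase that promotes the turnover of axin proteins, rose under siRNA A (165% of control, limma adjusted p = 0.00106) and stood at 127% under siRNA B (limma adjusted p = 0.0724, or 0.0427 without siRNA B library 3). FBXW11, a ubiquitin ligase subunit that recognises phosphorylated β-catenin, fell under siRNA B to 57.2% of control (-0.79 ± 0.11, limma adjusted p = 0.000335) and stood at 110% under siRNA A. The 2 siRNAs differed for FBXW11 (0.93 ± 0.11, limma adjusted p = 0.000117).

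Of 12 nuclear factors, 10 were called under siRNA A (4 higher, 6 lower) and 6 under siRNA B (4 higher, 2 lower). All genes tested were called at 51.4% and 34.0%. TLE2, a co-repressor of TCF factors, fell to 45.1% and 52.8% of control (limma adjusted p = 6.68e-05 and 0.000516). EP300, an acetyltransferase and β-catenin co-activator, rose to 162% and 158% (limma adjusted p = 0.00152 and 0.00428). CTBP2, a co-repressor, was at 67.8, 70.3 and 71.6 TMM-scaled CPM in control, 107, 108 and 106 under siRNA A, and 34.0, 41.5 and 35.2 under siRNA B. It had, like CTNNB1, opposite calls (0.61 ± 0.10 and -0.91 ± 0.10, limma adjusted p = 0.000376 and 5.63e-05), and the siRNAs differed by 1.51 ± 0.10 (limma adjusted p = 3.48e-06). By library totals alone the siRNA A values of CTBP2 (0.24, adjusted p = 0.0626) and EP300 (0.32, adjusted p = 0.0553) were not called. BCL9, which bridges β-catenin to its co-activators, had values of -0.63 and -0.58 (limma adjusted p = 0.0282 and 0.0544). Its siRNA A call was lost without control library 2 or 3 or siRNA A library 1 or 3 (up to 0.119), and its siRNA B value was called without control library 1, siRNA A library 1 or 2 or siRNA B library 2 (as low as 0.0218), with library totals alone (0.00825) and by DESeq2 (0.0389). LEF1, another TCF family member, had 1 read or none per library.

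Among 10 other targets tested, 5 were called under siRNA A (3 higher, 2 lower) and 4 under siRNA B (1 higher, 3 lower). Of all genes 51.4% and 34.0% were called, so both counts were near the background. Not counted here were AXIN2, NKD1, RNF43 and TCF7, which fell under siRNA B, ZNRF3, which was not called, and DKK1, which rose. CCND1, the G1 cyclin, was at 1008 to 1073 TMM-scaled CPM in control, 1826 to 2004 under siRNA A and 1376 to 1585 under siRNA B, and rose with both (0.87 ± 0.11 and 0.50 ± 0.11, limma adjusted p = 7.3e-05 and 0.00468). SOX9, a crypt progenitor factor, fell with both (-1.15 ± 0.32 and -1.06 ± 0.32, limma adjusted p = 0.011 and 0.0254), with replicate 2 highest in each group. EPHB2, the crypt receptor for ephrins, fell under siRNA A to 32.4% of control (limma adjusted p = 0.000794) and stood at 76.3% under siRNA B (adjusted p = 0.22, or 0.00831 without siRNA B library 2). MYC was at 264, 311 and 315 TMM-scaled CPM in control, 360, 794 and 376 under siRNA A, and 218, 263 and 222 under siRNA B. As with AXIN2, siRNA A library 2 stood apart. MYC was called higher under siRNA A (0.68 ± 0.24, limma adjusted p = 0.0325), but not without that library (0.32), without any 1 control library (adjusted p over these 4 fits from 0.0569 to 0.087) or with library totals alone (0.32, adjusted p = 0.232). The siRNA B value of MYC, -0.34, was called without siRNA A library 2 (adjusted p = 0.0341). The SOX9 call under siRNA B was lost without control library 2 or 3 or siRNA B library 1 or 3 (up to 0.0929) and by DESeq2 (0.0954).

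Among 4 genes of the adherens junction, where β-catenin also acts, CTNNA1, which links β-catenin to actin, was called higher under both siRNAs (0.28 and 0.29, limma adjusted p = 0.0302 and 0.0346), and CTNND1, which binds cadherin, was called lower under siRNA B (-0.43, limma adjusted p = 0.0385). By library totals the CTNNA1 values were -0.09 and 0.08 and neither was called (adjusted p = 0.472 and 0.586). Leaving out any 1 of 4 libraries ended the siRNA A call of CTNNA1 (control libraries 1 and 2, siRNA A libraries 2 and 3, adjusted p up to 0.0933) and any 1 of 5 its siRNA B call (all control replicates, siRNA B libraries 1 and 3, up to 0.116). The CTNND1 call was lost without control library 2 or 3 or siRNA B library 1 or 3 (up to 0.132).

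**Figure D4:**
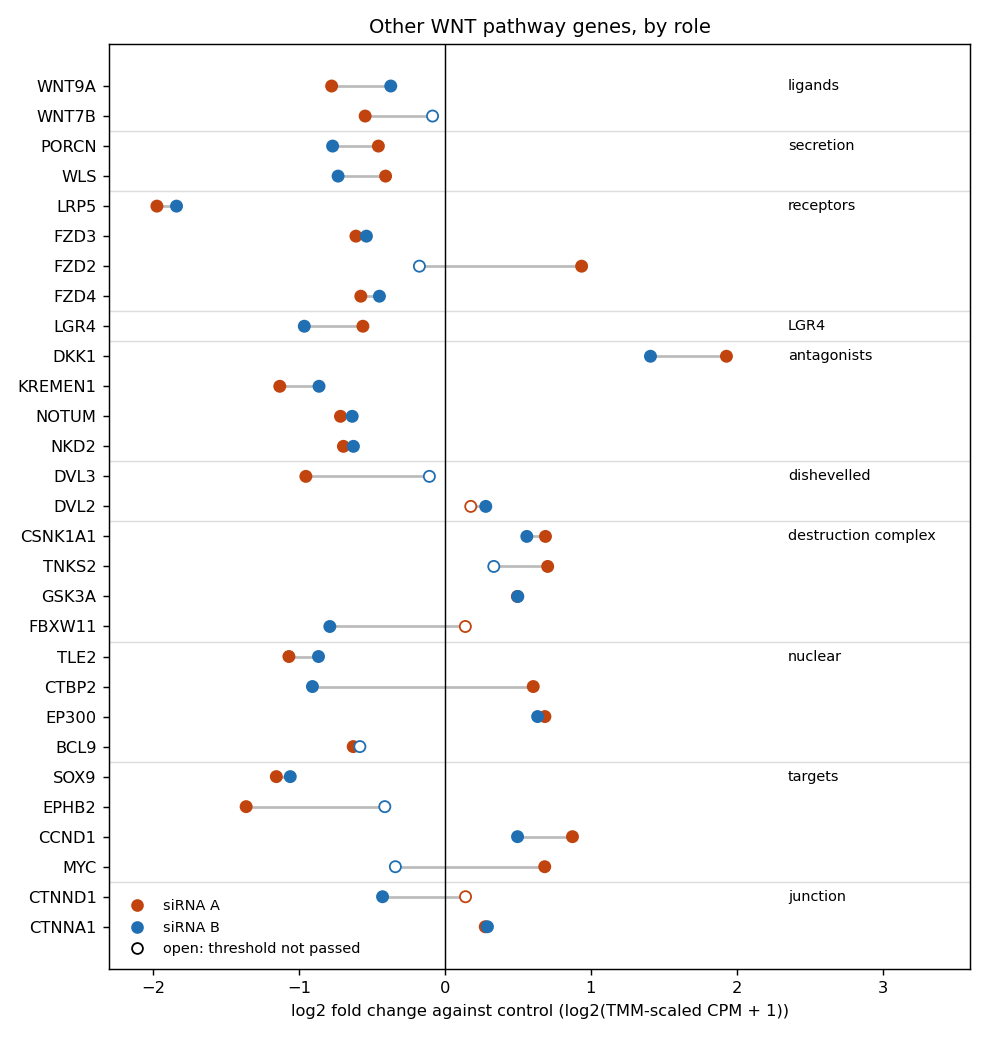
Log2 fold change against control (x axis) of the 29 other pathway genes named, grouped by role, for siRNA A and siRNA B; open points did not pass an adjusted p of 0.05, and grey lines join the 2 values of a gene. LRP5 (-1.97 and -1.84) and DKK1 (1.93 and 1.41) lie farthest from 0, and CTBP2 (0.61 and -0.91) has opposite calls.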

How the data were processed

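RNA of 9 HCT116 libraries was sequenced. The authors deposited a table of CPM, the reads of each gene relative to its library's total, and the labels name TopHat2, HTSeq and GRCh37, and the use of strand was not given in the sources used here. All values (100%, tolerance 0.01) were whole multiples of 1 read, so reads were recovered. Of 15354 identifiers, 14871 matched a symbol, and coordinates are from GENCODE on GRCh37. Exons of SNHG5, APC, AXIN2, LGR5, NKD1, RNF43, TCF7 (SKP1), TCF7L2 and 16 of the 29 other named genes overlap another gene, so reads may be shared. The 10 genes, the pathway list and the tests were chosen with earlier results of these data known.

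The test was limma 3.58.1 (R 4.3.3) with a mean per group over all 9 libraries and a trended prior, on log2(CPM/TMM factor + 1), for rows that reached 1 CPM in 3 or more libraries (90.5% of rows). TMM factors came from edgeR 4.0.16. Named genes were the 10, SNHG5, and per role up to 4 genes with the largest mean absolute log2 fold change among those called with either siRNA. Alternatives were library totals alone, DESeq2 size factors, a pseudocount of 0.1, no filter, edgeR and DESeq2 1.42.0 on recovered reads, a replicate block, and each library left out. Each control library correlated best with the siRNA A library of its number (r = 0.65, 0.41 and 0.13 of deviations from group means). For control replicate 3 the next value, with siRNA A replicate 2, was 0.094, so that match was weak. Same-numbered values were 0.17, 0.44 and -0.39 for control with siRNA B and 0.20, 0.44 and 0.019 for siRNA A with siRNA B. Replicate 2 thus correlated alike in all 3 pairs of groups, at 0.41 to 0.44. Limits from counts cover counting error only.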

Additional observations from a re-analysis of the deposited data

How the results depend on the processing

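Counts of the 10 genes called kept within 1.5 times of 4 for siRNA A, 5 for siRNA B and 4 for siRNA A against siRNA B under library totals alone, DESeq2 size factors, a pseudocount of 0.1, no filter, edgeR, DESeq2 and the block. With 1 library left out they ran from 2 to 4, from 4 to 5 and from 3 to 5; the siRNA A count of 2 was without control replicate 1. The counts of other pathway genes ran from 26 to 39, from 21 to 34 and from 13 to 26. With the replicate number as a block, the pathway counts were 39, 39 and 30, the counts of the 10 genes were 4, 5 and 4, and among named genes only TNKS2 (0.33), BCL9 (-0.58) and EPHB2 (-0.41) with siRNA B changed side, all to called (limma adjusted p = 0.0269, 0.00189 and 0.0474). Not every library correlated best with its own number in the comparisons that involve siRNA B. Library totals alone turned the sign of the siRNA A values of RNF43 (-0.34), DVL2 (-0.18), FBXW11 (-0.22), CTNND1 (-0.23) and CTNNA1 (-0.092), and of the siRNA B value of TCF7L2 (-0.084); of these only CTNNA1 had been called. With 1 library left out, values ran from -0.44 to 0.066 for AXIN2 and from -0.093 to 0.14 for RNF43 under siRNA A, and from -0.031 to 0.22 for TCF7L2 and -0.19 to 0.025 for WNT7B under siRNA B. The ZNRF3 difference between siRNAs ran from -0.11 to 0.10, turning positive without siRNA A replicate 1 or siRNA B replicate 2. The causes were not tested. Depth limits LGR5 and ASCL2, where 3 reads or fewer cannot be told from 0.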
